A study of Mus musculus with 8 samples.

Results

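The immediate early transcription factor genes Fos, Fosb, Fosl2, Jun, Junb, Jund, Atf3, Egr1, Nr4a1 and Nr4a3 were followed in mouse dendritic cells with and without lipopolysaccharide (LPS), the endotoxin of Gram-negative bacteria. They were chosen by name, with earlier results of these data known. All 10 had a probe on the array, 11 probes among 27509 that matched a gene, out of 20887 genes in all. Every member was well above background on all 8 arrays by its brightest probe, so none was lost to the filter on dim probes. The LPS group was 4 samples of mature cells, treated overnight with LPS at 50 ng/ml and collected on day 7. The immature group was 4 samples collected on day 6 with no LPS. Both groups came from bone marrow cells of C57BL/6 females grown with IL-4 and 10 ng/ml of GM-CSF. The labels call the starting cells both monocytes and progenitor cells. Day 7 cells without LPS were not among the samples, so LPS and the further night of culture cannot be told apart. The labels do not say whether the replicates were separate cultures or animals, so the p-values measure the spread between these samples, which may be technical.

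AP-1 is a dimer of leucine-zipper proteins, in which a Jun protein pairs with another Jun protein, a Fos protein or an ATF protein. Egr1 is a zinc finger factor, and the Nr4a proteins are orphan nuclear receptors whose activity is set mostly by how much of them is made. Most of their genes are transcribed within minutes of a stimulus, through MAP kinases, serum response factor and CREB, without new protein synthesis. Many of the mRNAs are short-lived. In myeloid cells LPS is known to raise many of these genes early and briefly, and the overnight samples come long after that first wave. Many of the same genes are also known to respond to serum, mechanical handling and cell dissociation.

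Each value is the processed signal of 1 probe, an intensity with the background removed, and fold changes are on the log2 scale after the 75th percentile of each array was subtracted. That percentile averaged 406 ± 13.4 on the LPS arrays and 469 ± 18.5 on the immature arrays (SD, n = 4 each; exact permutation test, two-sided, p = 0.0286, which is the lowest value possible for 4 against 4). The slope of the spike-in controls also separated the groups, at 0.973 ± 0.00925 on LPS arrays and 0.947 ± 0.00743 on immature arrays (SD, n = 4 each; exact permutation test, p = 0.0286). All 8 arrays were on 1 slide, with LPS samples in slide row 2 and immature samples in row 1, so row and treatment cannot be told apart. Slide column equalled the replicate number in both groups, so column and replicate cannot be told apart either. Immature replicate 3 stood apart from the other immature arrays: its log2 differences from replicates 1, 2 and 4 had a scaled median absolute deviation of 0.288 to 0.438, against 0.118 to 0.250 among the other immature pairs. Limma's moderated test called 7124 of 12707 genes changed at an adjusted p under 0.05, or 56.1%, and the median log2 fold change was 0.06. Of the called genes 56.0% rose, but 38.5% with arrays scaled to their median and 35.3% with no scaling, which put the median of all genes at -0.12 and -0.15.

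Dendritic cell markers were present: Itgax (CD11c), Cd74 and the MHC class II gene H2-Ab1 were well above background on all 8 arrays. Of 10 dendritic cell markers tested 3 rose and 4 fell, and Cd209a, a lectin of immature cells, was not well above background on any LPS array. Flt3, Ccr7 and Zbtb46 rose by 2.65 ± 0.18, 2.12 ± 0.18 and 0.71 ± 0.19 log2 (SE), while Itgax fell by 0.99 ± 0.10, Cd74 by 0.46 ± 0.09 and Ciita by 1.34 ± 0.24. Markers of other myeloid cells moved with the treatment. Of 10 neutrophil markers 9 fell and 0 rose, led by Mpo (-4.66 ± 0.42 log2, SE), and their summed signal was 412 to 608 multiples of the 75th percentile in LPS samples and 878 to 1019 in immature samples. Of 8 macrophage markers 4 fell, led by the complement gene C1qc (-2.31 ± 0.11), and 1 rose, with sums of 345 to 406 in LPS and 398 to 476 in immature samples. Of 5 monocyte markers 2 rose and 2 fell, with F13a1 at -3.78 ± 0.56, and sums were 450 to 654 in LPS and 107 to 191 in immature samples. The 2 that rose were the brightest of the 5 in both groups, so these sums mostly reflect those 2 genes. In mast cell and basophil markers 3 of 4 fell (Mcpt8, -2.14 ± 0.41) and 1 rose, and in those of megakaryocytes 2 of 4 rose and 1 fell (Itga2b, -1.11 ± 0.22). Lymphoid, erythroid and stromal lists had sums of 0.433 to 5.28 multiples of the 75th percentile, the highest being those of T cells. The sums of mast cell and basophil markers were 4.70 to 8.16. Of 2 B cell genes tested 0 were called (Cd79b, -0.27 ± 0.40). Among 4 T cell genes 1 rose and 1 fell, and 1 of 2 natural killer genes and 1 of 3 erythroid genes fell. The called decreases in those 3 lists, Cd3d, Klrb1c and Hba-a1, were in genes not well above background on any LPS array. Of 3 stromal genes 1 rose (Pdgfrb, 1.85 ± 0.30). Pax5, Ncr1, Gzma, Eomes, Mcpt4, Klf1, Col3a1 and Cdh5 were not well above background on any array. The part of any of these cells in the results below was not tested, and in bulk RNA fewer cells of a type cannot be told apart from less RNA per cell.

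Promoter windows of 9 of the 10 genes were read from a RefSeq table (GRCm38.p6, windows of 300 bases that end 50 bases past the transcript start). The window of Egr1 was left out and is not reported here. Of these windows 4 are shown, those of Fos, Fosb and Nr4a1, whose signals varied most between arrays of the LPS group, and that of Nr4a3, a relative of Nr4a1 that varied less. They lie at chr12:85473640-85473939, plus strand for Fos, chr7:19309996-19310295, minus strand for Fosb, chr15:101266596-101266895, plus strand for Nr4a1 and chr4:48045055-48045354, plus strand for Nr4a3. Capitals mark TGACG, the short core that CREB and ATF proteins are known to bind, or its reverse complement CGTCA.
Fos: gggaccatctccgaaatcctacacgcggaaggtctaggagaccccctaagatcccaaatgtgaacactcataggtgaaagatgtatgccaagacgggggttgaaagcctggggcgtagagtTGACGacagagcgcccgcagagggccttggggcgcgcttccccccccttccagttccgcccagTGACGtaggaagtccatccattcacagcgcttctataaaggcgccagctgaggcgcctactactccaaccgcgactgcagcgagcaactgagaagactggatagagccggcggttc
Fosb: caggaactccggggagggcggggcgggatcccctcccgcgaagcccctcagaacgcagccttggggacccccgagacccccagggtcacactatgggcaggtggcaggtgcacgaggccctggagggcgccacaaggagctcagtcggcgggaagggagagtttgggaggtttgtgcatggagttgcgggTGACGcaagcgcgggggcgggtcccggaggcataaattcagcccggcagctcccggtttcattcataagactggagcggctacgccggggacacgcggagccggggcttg
Nr4a1: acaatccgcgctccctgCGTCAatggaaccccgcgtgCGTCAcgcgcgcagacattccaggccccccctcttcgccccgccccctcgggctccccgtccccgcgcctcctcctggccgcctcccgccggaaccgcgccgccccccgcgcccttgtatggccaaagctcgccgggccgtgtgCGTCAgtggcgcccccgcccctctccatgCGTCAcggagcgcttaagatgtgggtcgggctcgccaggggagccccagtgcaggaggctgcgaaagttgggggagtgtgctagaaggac
Nr4a3: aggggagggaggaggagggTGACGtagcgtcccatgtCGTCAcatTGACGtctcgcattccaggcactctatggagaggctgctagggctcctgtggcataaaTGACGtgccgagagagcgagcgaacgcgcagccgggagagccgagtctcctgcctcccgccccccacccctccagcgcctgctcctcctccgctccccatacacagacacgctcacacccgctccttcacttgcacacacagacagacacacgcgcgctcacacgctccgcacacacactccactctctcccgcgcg
This core, read on both strands, was in 6 of the 9 windows, against 20.8% of 32851 windows in the table. Nr4a1 and Nr4a3 had 4 matches each, Fos had 2, and Fosb, Junb and Atf3 had 1, while Fosl2, Jun and Jund had 0. Its letters were chosen after the windows had been read. None of the 9 windows held the full cAMP response element TGACGTCA, the AP-1 element TGANTCA, a CArG box of serum response factor, the Egr site GCGTGGGCG or the Nr4a element AAAGGTCA. Those were in 1.79%, 7.81%, 1.63%, 0.612% and 1.51% of all windows. With 9 windows, a count of 0 is near these shares, and sequence outside the windows was not read. The full element and TGACG overlap, and a match is a description of letters.

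After LPS, 4 of the 10 genes rose (Fosl2, Junb, Atf3 and Nr4a3), Jund fell, and Fos, Fosb, Jun, Egr1 and Nr4a1 did not pass (limma, adjusted over all genes). Called changes made up 56.1% of all genes tested, 31.4% upward and 24.7% downward, so 5 called of 10 is close to that background. The median log2 fold change of the 10 genes was 0.93, against 0.06 over all genes. The largest of the 5 called changes was 2.39-fold (Junb), while Fos, Fosb and Nr4a1 averaged 3.32-fold to 6.06-fold higher with errors too wide to pass. The 4 rising calls became 2 without LPS replicate 3 or without immature replicate 2, and 5 without immature replicate 3. They became 1 when replicates 1 and 2 of each group were averaged. Those 2 were the closest arrays in each group, their log2 differences having a scaled median absolute deviation of 0.139 in LPS and 0.118 in immature arrays.

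**Figure D1:**
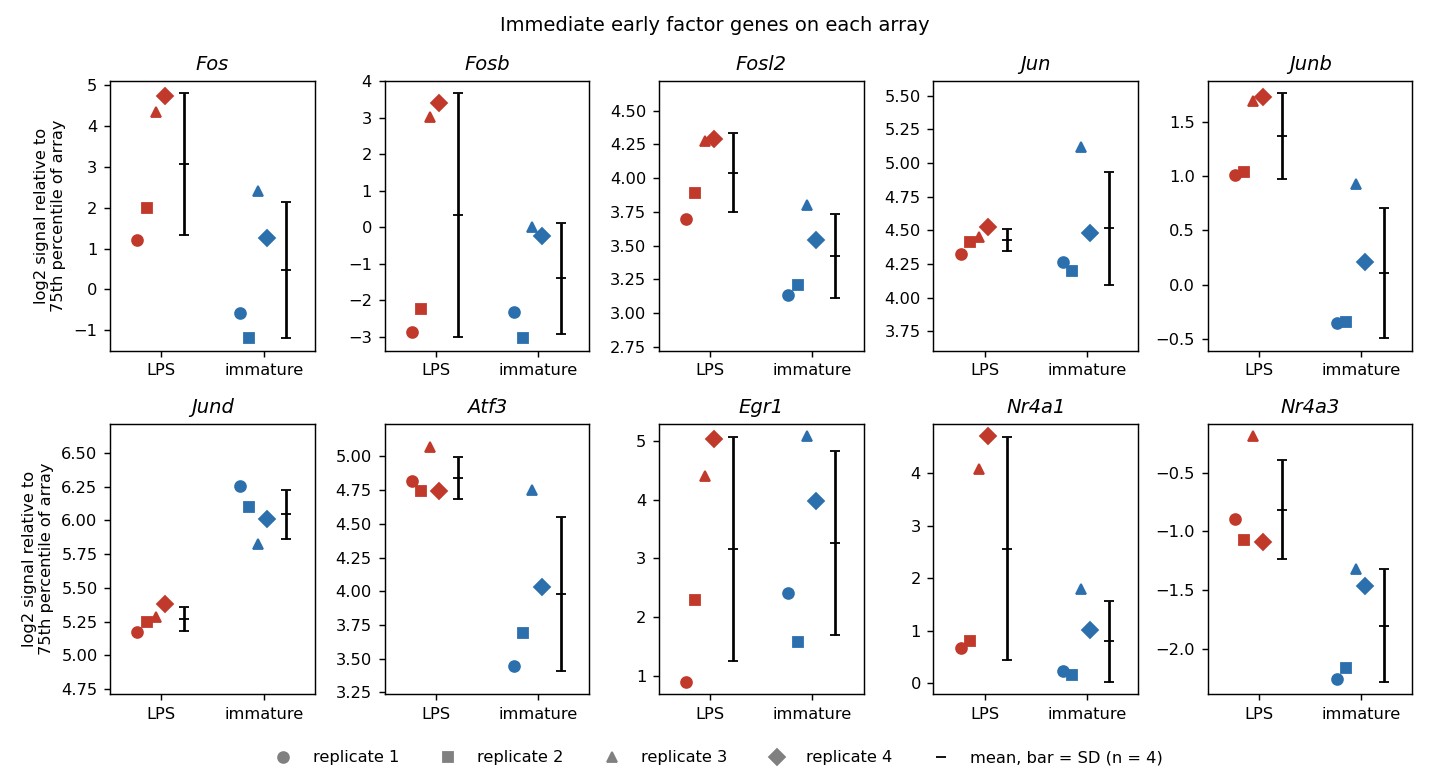
Log2 processed signal relative to the 75th percentile of each array for the 10 genes, LPS arrays (red) left of immature arrays (blue). Symbols mark the replicate number and the bar is the mean with its SD (n = 4). The vertical scale differs between panels. In Fosb and Nr4a1 the LPS arrays fall into a low pair, replicates 1 and 2, and a high pair, replicates 3 and 4.

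Fos encodes the founding member of its family, a protein that binds DNA only as a partner of a Jun protein. Its signal was 966, 1582, 7968 and 11271 on LPS arrays 1 to 4, against 328, 208, 2437 and 1088 on immature arrays 1 to 4. LPS replicates 3 and 4 were above every immature array, while LPS replicates 1 and 2 lay below immature replicate 3 and the groups overlapped. The mean was 3.08 ± 1.73 log2 in LPS and 0.48 ± 1.67 in immature cells (SD, n = 4 each). The difference of 2.60 ± 1.02 log2 (SE), or 6.06-fold, did not pass (limma adjusted p = 0.0582). It passed without immature replicate 3 (3.25 log2, adjusted p = 0.0246) and without LPS replicate 1 (3.22 log2, adjusted p = 0.0327). It also passed with normexp background correction (2.39 log2, adjusted p = 0.0495). Over the 8 settings that leave out 1 array it lay between 2.04 and 3.25.

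Fosb, a close relative of Fos that also needs a Jun partner, showed the widest spread of the group. Its signal was 56.9, 83.6, 3160.0 and 4460 on LPS arrays 1 to 4, against 98.3, 57.7, 460 and 377 on immature arrays 1 to 4. After scaling, LPS replicates 1 and 2 were within the immature range and replicates 3 and 4 far above it. The highest LPS array had 77.1 times the relative signal of the lowest, and the highest immature array 8.32 times that of the lowest. Of all 12707 genes tested, Fosb had the largest SD among the LPS arrays, 3.34 log2. The difference of 1.73 ± 1.56 log2 (SE) did not pass (limma adjusted p = 0.371) and lay between 0.70 and 2.79 over the 8 settings that leave out 1 array.

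Fosl2 encodes Fra-2, a Fos protein without the strong transactivation domain of Fos. Its brighter probe read 5383, 5891, 7616 and 8215 on LPS arrays 1 to 4, against 4297, 4408, 6387 and 5243 on immature arrays 1 to 4. After scaling, immature replicate 3 was above LPS replicate 1, so the groups overlapped. Fosl2 rose by 0.62 ± 0.19 log2 (SE), or 1.54-fold (limma adjusted p = 0.0232). The call was lost without LPS replicate 3 (adjusted p = 0.0618) or 4 (0.0603) and without immature replicate 1 (0.0612) or 2 (0.0617). It was also lost with scaling to the array median (0.0608) or none (0.0782), and with replicates 1 and 2 of each group averaged (0.0553). Its dimmer probe, well above background on 4 LPS arrays and 3 immature arrays, had a difference of 1.00 ± 0.19 log2 (adjusted p = 0.00247 over 16634 probes, 54.8% of which were called).

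Among the Jun genes, whose proteins form the DNA-binding core of AP-1, Junb rose, Jund fell and Jun did not pass. Junb, which can act as a weaker activator than Jun, read 835, 814, 1264 and 1390.3 on LPS arrays 1 to 4, against 384, 376, 867 and 518 on immature arrays 1 to 4. After scaling, every LPS array was above every immature array, immature replicate 3 coming close to the lowest LPS array. Junb rose by 1.26 ± 0.31 log2 (SE), or 2.39-fold (limma adjusted p = 0.00883), and passed in each of the 17 alternatives with adjusted p up to 0.0316.

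Jund, a Jun gene known for steady expression in resting cells, had the smallest SD of the 10 genes among immature arrays, 0.18 log2. It read 14897, 15051, 15308 and 17519 on LPS arrays 1 to 4, against 37541, 32753, 25899 and 28958 on immature arrays 1 to 4. No LPS array reached the lowest immature array, which was replicate 3. Jund fell by 0.78 ± 0.10 log2 (SE), or 1.71-fold (limma adjusted p = 0.000372), and passed in all 17 alternatives (adjusted p up to 0.00513).

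Jun, the founding member and the target of Jun N-terminal kinase, read 8312, 8459, 8564 and 9673 on LPS arrays 1 to 4, against 9429, 8773.5, 15894 and 10067 on immature arrays 1 to 4. The LPS arrays lay close together (SD 0.08 log2), and immature replicate 3 was above all other arrays. The difference was -0.09 ± 0.19 log2 (SE; limma adjusted p = 0.715), and 0.11 (adjusted p = 0.315) without immature replicate 3. The SD among immature arrays was 0.42 log2 and 0.15 without that array.

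Groups did not overlap for 3 members, Junb, Jund and Nr4a3, where 52.4% of all genes tested had groups that did not overlap.

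Atf3 encodes a stress-responsive member of the ATF family that restrains inflammatory genes in macrophages. It read 11655, 10664, 13153 and 11241 on LPS arrays 1 to 4, against 5339, 6157, 12331 and 7378 on immature arrays 1 to 4. Immature replicate 3 reached the LPS range and the other immature arrays did not. Atf3 rose by 0.86 ± 0.26 log2 (SE), or 1.82-fold (limma adjusted p = 0.0202), and by 1.12 log2 without immature replicate 3 (adjusted p = 0.000604). The call was lost without LPS replicate 3 (adjusted p = 0.0538) or immature replicate 2 (0.0545), and with replicates 1 and 2 of each group averaged (0.0848). The SD among immature arrays was 0.57 log2, and 0.30 without replicate 3.

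Egr1, a zinc finger factor that is a classical target of serum response factor, gave no direction. It read 775, 1955, 8237 and 13729 on LPS arrays 1 to 4, against 2610.2, 1421.5, 15387 and 7089 on immature arrays 1 to 4. The lowest of all 8 arrays was LPS replicate 1 and the highest immature replicate 3, and the ranges overlapped almost entirely. The difference was -0.10 ± 1.05 log2 (SE; limma adjusted p = 0.941). Leaving out 1 array moved it between -0.73 and 0.65, and it was above 0 without LPS replicate 1 (0.65) or 2 (0.18) and without immature replicate 3 (0.50) or 4 (0.14).

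Nr4a1 encodes Nur77, an orphan receptor that limits inflammation in myeloid cells. It read 656, 695, 6619 and 10909 on LPS arrays 1 to 4, against 574, 533, 1578 and 908 on immature arrays 1 to 4. LPS replicates 3 and 4 were above every immature array, and LPS replicates 1 and 2 were below immature replicates 3 and 4. The difference of 1.76 ± 0.96 log2 (SE) did not pass (limma adjusted p = 0.150), and lay between 1.05 and 2.40 over the settings that leave out 1 array. The SD was 2.12 log2 among LPS arrays and 0.77 among immature arrays, and 0.475 among immature arrays without replicate 3.

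Nr4a3, which encodes the related receptor Nor1, read 222.5, 188.5, 344 and 197 on LPS arrays 1 to 4, against 102, 106, 184 and 163 on immature arrays 1 to 4. The groups did not overlap. Nr4a3 rose by 0.99 ± 0.28 log2 (SE), or 1.99-fold (limma adjusted p = 0.0157), and stayed past the threshold when any 1 array was left out (adjusted p up to 0.0434). The call was lost when replicates 1 and 2 of each group were averaged (0.91 log2, adjusted p = 0.0616).

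**Figure D2:**
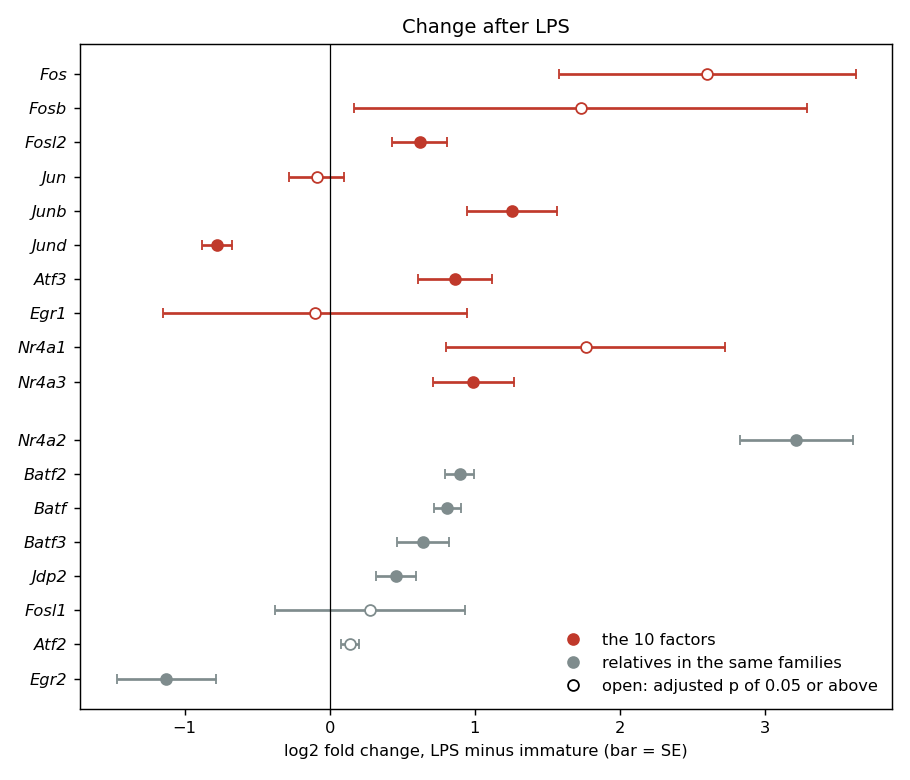
Log2 fold change, LPS minus immature, with its SE for the 10 genes (red) and 8 tested relatives of the same families (grey). Filled points passed an adjusted p of 0.05. Fos, Fosb, Egr1 and Nr4a1 have SEs of 0.96 to 1.56 log2, and the 5 called members SEs of 0.10 to 0.31.

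The spread among the immature arrays differed widely between the genes. The SD was 1.67 log2 for Fos, 1.57 for Egr1 and 1.51 for Fosb, which ranked 14, 21 and 24 from the top of 12707 genes whose median SD was 0.18. Between the highest and lowest immature array these genes differed 12.2-fold, 11.3-fold and 8.32-fold. Nr4a1 (0.77), Junb (0.60), Atf3 (0.57), Nr4a3 (0.48), Jun (0.42) and Fosl2 (0.31) followed, and Jund had 0.18, close to the median of all genes. Without immature replicate 3 the SD was 0.475 for Nr4a1, 0.32 for Junb, 0.30 for Atf3 and 0.15 for Jun, and 1.45, 1.29 and 1.22 for Fosb, Fos and Egr1. With normexp background correction the SD was 1.04 for Fosb and 0.33 for Nr4a3, and 1.54 for Egr1 and 1.47 for Fos. Of the 10 genes 7 were among the 10% of all genes with the highest SD, and 6 were so among the LPS arrays. Among LPS arrays Fosb, Nr4a1, Egr1 and Fos ranked 1, 3, 6 and 10 from the top, with SDs of 3.34, 2.12, 1.90 and 1.73 log2 against a median of 0.13. Atf3 (0.15), Jund (0.09) and Jun (0.08) varied little there. Whether the spread itself differs between LPS and immature cells was not tested.

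**Figure D3:**
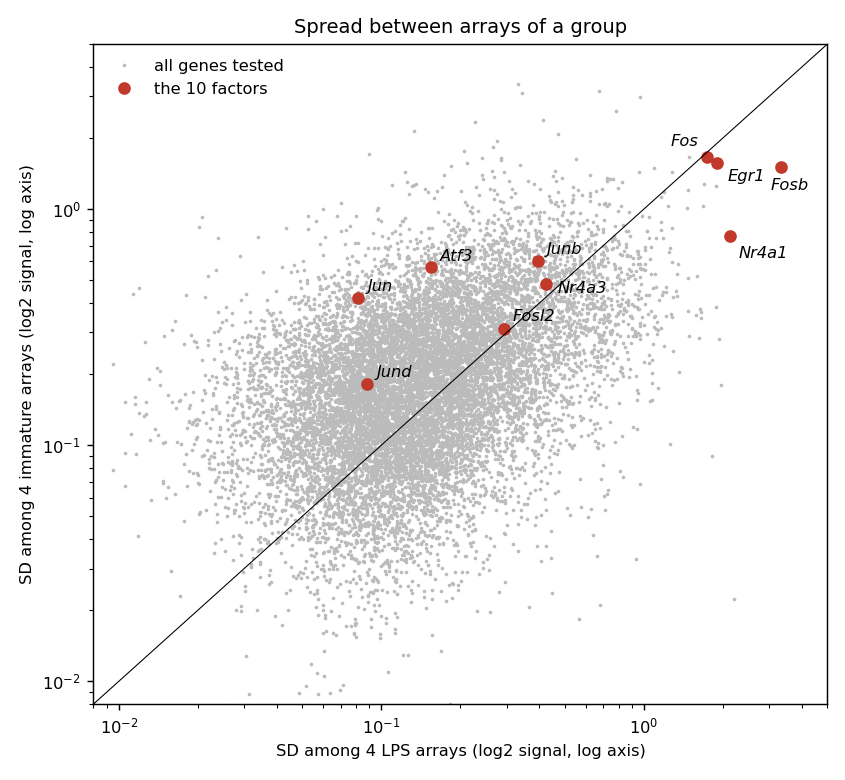
SD of the log2 signal among the 4 LPS arrays (horizontal, log axis) and among the 4 immature arrays (vertical, log axis) for all 12707 genes tested (grey) and the 10 genes (red). The line marks equal SDs. Fos, Egr1, Fosb and Nr4a1 lie at the upper right edge, and Jun and Atf3 lie above the line.

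The same arrays were high in most of the genes. Immature replicate 3 was the highest immature array in 9 of the 10 genes, against 35.2% of all genes, the exception being Jund. Immature replicates 3 and 4 were both above replicates 1 and 2 in those same 9 genes, against 27.7% of all genes. LPS replicates 3 and 4 were both above 1 and 2 in 8 genes, against 18.8%, Atf3 and Nr4a3 being the exceptions. The pattern held in both groups for 7 genes, Fos, Fosb, Fosl2, Jun, Junb, Egr1 and Nr4a1, against 5.62% of all genes. It was noticed in these data and the counts are a description. Slide column was the same as replicate number on every array, so the pattern cannot be told apart from slide position. The mean of replicates 3 and 4 was above that of 1 and 2 by 54.4-fold in LPS and 5.90-fold in immature cells for Fosb, and by 12.6-fold and 2.31-fold for Nr4a1. For Egr1 these folds were 8.63 in LPS and 5.78 in immature cells, and for Fos 7.66 and 6.66.

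Repeated spots give the measurement error within an array. The Fos probe was printed on 10 spots, and their SD on an array was 0.03 to 0.09 log2. The Nr4a3 probe also had 10 spots, with SDs of 0.06 to 0.15, and 1 of its spots on LPS replicate 2 was left out for an outlier flag. The spots share the RNA, labelling and hybridisation of their array, so their SD leaves out every difference between samples or hybridisations, and the source of the spread between arrays was not tested. The other members had 1 spot for each probe.

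**Figure D4:**
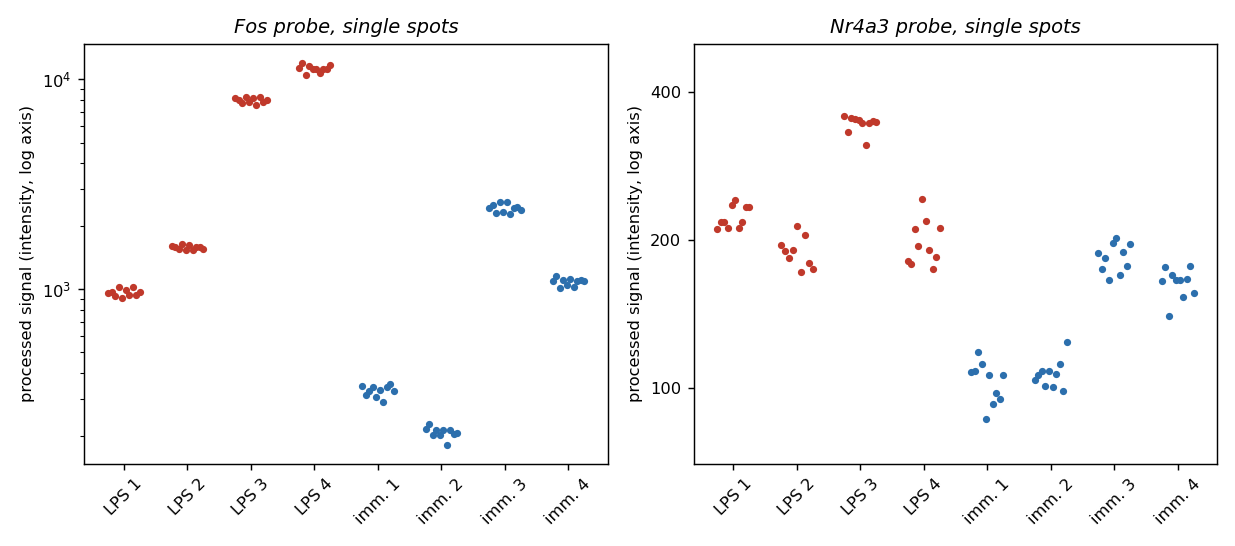
Processed signal (log axis) of each spot of the Fos probe (left) and the Nr4a3 probe (right) on LPS arrays 1 to 4 (red) and immature arrays 1 to 4 (blue, imm.). The spots of Fos on 1 array form a tight cluster, and only those of LPS replicate 1 and immature replicate 4 meet.

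Among relatives of the 10 genes in the AP-1, Egr and Nr4a families, 5 of 8 tested rose, 1 fell and 2 did not pass, with a median of 0.55 log2. Replicates 3 and 4 were above 1 and 2 in 7 of the 8 in LPS cells and in 4 in immature cells. They were so in both groups in 4, against 5.62% of all genes. Among immature arrays 2 of the 8 were in the 10% of all genes with the highest SD, Fosl1 having 1.35 log2. Nr4a2, encoding the receptor Nurr1, read 1929, 1979, 2774 and 2922 on LPS arrays 1 to 4, against 175, 190.5, 469 and 473 on immature arrays 1 to 4. It rose by 3.22 ± 0.39 log2 (SE), or 9.29-fold (limma adjusted p = 0.000221), with no overlap between groups. Batf2, Batf, Batf3 and Jdp2, genes of zipper proteins that pair with Jun proteins, rose by 0.89 ± 0.10, 0.81 ± 0.09, 0.64 ± 0.18 and 0.46 ± 0.14 log2.

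Egr2, the closest tested relative of Egr1, fell by 1.13 ± 0.34 log2 (SE; limma adjusted p = 0.0217). It read 5415, 6010, 11001 and 15453 on LPS arrays 1 to 4, against 20907, 16536, 27694 and 23326 on immature arrays 1 to 4, again with replicates 3 and 4 the higher in each group. Fosl1, encoding Fra-1, had 0.28 ± 0.65 and Atf2 had 0.14 ± 0.06, and neither passed. Egr3 and Egr4 were too dim to be tested, and Atf7 had no matched probe here.

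Of 18 other leucine-zipper genes of the ATF, CREB and MAF groups 11 rose, 4 fell and 3 did not pass (median 0.30 log2). Crem, which encodes both activators and the cAMP-inducible repressor ICER, rose by 2.56 ± 0.09 log2 and Nfil3, a repressor needed for some dendritic cells, by 1.76 ± 0.39. In the group of serum response factor, its partners and the Nab corepressors of Egr proteins, 4 of 8 rose and 2 fell (median 0.11). The coactivator gene Mrtfa rose by 0.67 ± 0.09 and Elk3 by 0.60 ± 0.17, while Nab2, itself a target of Egr1, fell by 0.72 ± 0.12.

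Of 20 tested genes of the MAP kinase cascade 8 rose, 5 fell and 7 did not pass (median 0.23 log2). Map2k1, encoding the ERK kinase MEK1, rose by 0.98 ± 0.17 and Map3k8, the kinase TPL2 that links LPS to ERK, by 0.76 ± 0.12. Mapk13, a p38 kinase gene, fell by 1.61 ± 0.17. Replicates 3 and 4 were above 1 and 2 in 3 of these 20 genes in LPS cells, in 6 in immature cells and in 0 in both groups, the last near the 5.62% of all genes.

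The array pattern was also seen in part of the other immediate early genes. In 13 of 27 tested genes, and not in the other 14, replicates 3 and 4 were above 1 and 2 in both groups, against 5.62% of all genes. The list held 12 genes that rose, 3 that fell and 12 that did not pass (median 0.42 log2). Ptgs2, encoding the inducible cyclooxygenase, rose by 5.53 ± 0.69 log2 and Gem, a small GTPase gene, by 3.55 ± 0.16. Myc, a growth factor-induced factor, fell by 2.83 ± 0.42, with 116, 124, 270.0 and 296 on LPS arrays 1 to 4, against 2251, 2004, 742 and 1562 on immature arrays 1 to 4. Replicates 3 and 4 were thus the higher for Myc in LPS cells and the lower in immature cells.

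Of 15 inflammatory genes with known AP-1 sites 6 rose, 5 fell and 4 did not pass (median 0.11 log2). Il6 rose by 5.59 ± 0.28 and Il1b by 4.69 ± 0.31, while the cyclin gene Ccnd1 fell by 2.46 ± 0.44. Replicates 3 and 4 were the higher in both groups for 2 of the 15.

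Among 8 genes of heat shock and handling stress, 0 had replicates 3 and 4 above 1 and 2 in both groups, where 5.62% of all genes did, and with so few genes a count of 0 is near that background. Replicates 3 and 4 were the higher in 3 of the 8 in LPS and in 2 in immature cells, and immature replicate 3 was the highest immature array in 0 of 8, against 35.2% of all genes. In this list 5 rose, 1 fell and 2 did not pass (median 0.30 log2). Hspa1a and Hsph1, encoding heat-inducible chaperones, rose by 1.83 ± 0.15 and 1.52 ± 0.18, and the mitochondrial chaperone gene Hspd1 fell by 0.67 ± 0.17. Hspa1a was dim, with 20.2 to 31.1 on immature arrays and 67.0 to 92.1 on LPS arrays. The median signal of the immature arrays was 19.8 to 20.5. Of 8 genes of cell death and damage 3 rose, 1 fell and 4 did not pass (median 0.18). Ddit4, a stress-induced inhibitor of mTORC1, rose by 2.20 ± 0.71 log2, Mdm2 by 0.92 ± 0.11, and Trp53 fell by 0.59 ± 0.17. Ddit4 read 14581, 18508, 21114 and 15632 on LPS arrays 1 to 4, against 1537, 1852, 13860 and 8928 on immature arrays 1 to 4, and its SD among immature arrays, 1.65 log2, was close to that of Fos. Replicates 3 and 4 were above 1 and 2 in 2 of these 8 genes in LPS cells, in 3 in immature cells and in 0 in both groups, against 18.8%, 27.7% and 5.62% of all genes. The labels give no harvest time or order for single samples, and the part of handling in the pattern was not tested.

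**Figure D5:**
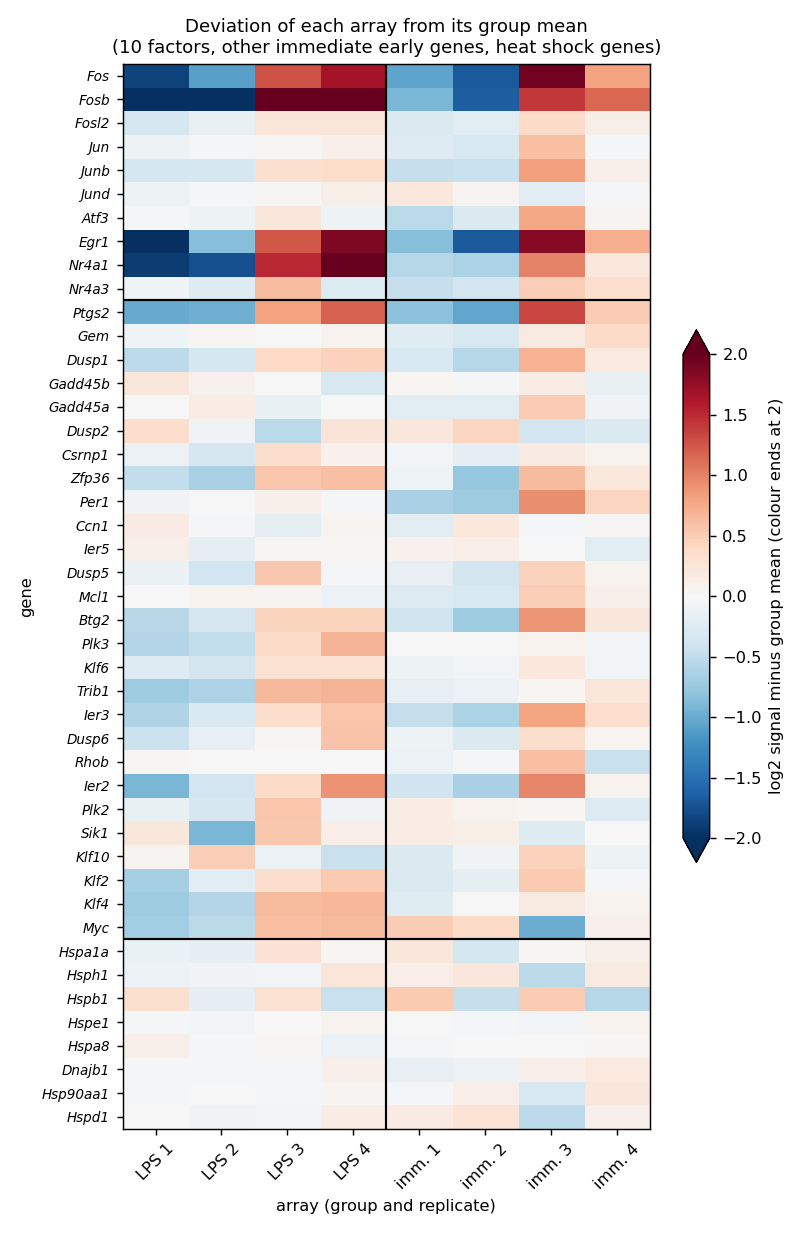
Deviation of each array from the mean of its own group, in log2 signal, for the 10 genes (top), 27 other immediate early genes (middle) and 8 heat shock genes (bottom), with LPS arrays 1 to 4 left and immature arrays 1 to 4 (imm.) right. Red is above and blue below the group mean, and colours end at 2. Replicates 3 and 4 are red and 1 and 2 blue in both groups for Fos, Fosb, Egr1 and Nr4a1.

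The genes with the profile most like each factor over the 8 arrays, which share 1 slide, were ranked by Pearson's r as a description. For Fos they were Zfp36 (r = 0.97), which encodes the mRNA-destabilising protein tristetraprolin, Gm7337 (0.96) and Gabrd (0.96). Gm7337 and Gabrd were dim, at 34.9 to 86.9 and 17.6 to 42.1 over the 8 arrays. For Egr1 they were the immediate early genes Ier2 (0.98) and Ier3 (0.95) and the leukotriene B4 receptor gene Ltb4r1 (0.98). For Nr4a1 they were Klf6 (0.98), an early zinc finger factor, the connexin gene Gjc3 (0.98) and Gm6377 (0.97). Ier2 read 237, 330, 553 and 844 on LPS arrays 1 to 4, against 400.05, 328, 966 and 511 on immature arrays 1 to 4, and its mean difference was 0.00 ± 0.46 log2 (SE). Zfp36 rose by 1.14 ± 0.38 log2 (limma adjusted p = 0.0327).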

How the data were processed

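Total RNA of 8 samples was labelled with Cy3 and hybridised to one-colour Agilent arrays. Per the file headers, the authors' deposited files hold the processed signal of each spot, an intensity with background subtracted and spatial trend removed by Agilent Feature Extraction 11.0.1.1, not scaled between arrays. They also hold raw spot and background intensities and, per the file headers, other columns of flags (0 or 1). Control spots and outlier flags (122 to 206 spots an array) were left out, log2 signals of the spots of a probe averaged, and each array's 75th percentile subtracted. Of 55681 probes 27509 matched 1 symbol by transcript accession in a RefSeq table. A gene was represented by its brightest probe and tested when that probe exceeded background on all 4 arrays of 1 group or more. LPS and immature arrays were compared with limma 3.58.1 in R 4.3.3 (lmFit, eBayes, two-sided, Benjamini-Hochberg, threshold 0.05). The number of arrays limits the precision (median SE 0.12 log2). The fit was tested on simulated data.

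The 10 genes and all lists were chosen with earlier results of these data known. The text names all 10 genes and every relative of the same families, from other lists the 2 largest called changes in the commoner direction and 1 in the other, from marker lists the largest called change or the brightest gene, and the 3 genes most like Fos, Egr1 and Nr4a1. Other genes whose levels are given (dendritic cell markers and array values of Ddit4, Hspa1a, Gm7337 and Gabrd) were chosen after values were seen. Some genes that this rule names are not reported here. Alternatives were normexp background correction (offset 50), median, quantile, detected-probe or no scaling, no dim filter, the mean of probes, the replicate block, leaving out each array, and averaging replicates 1 and 2. Figures used matplotlib 3.10.9.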

Additional observations from a re-analysis of the deposited data

Results flagged for a closer look

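In 116 groups of 4 arrays, 2 for each named gene that was tested, a lone array was set against the other 3 by Dixon's ratio with its critical value of 0.829, and 4 passed, where chance gives about 1 in 20. None was in the 10 factor genes. Immature replicate 3 was the lowest for Hsph1 (1.98 log2 relative to the 75th percentile, the next array at 2.65) and for Ccnd1 (1.32, next 2.94). LPS replicate 4 was the lowest for Mrtfa (5.19, next 5.46), and immature replicate 4 the highest for Mcpt8 (1.86, next 0.86).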

How the results depend on the processing

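Over 17 alternatives for each of the 10 genes, 150 fold changes kept their direction and their side of the threshold, 11 lost and 4 gained a call, and 5 changed sign; every alternative kept the calls of Junb and Jund. Leaving out 1 array moved Fos between 2.04 and 3.25 log2, Fosl2 between 0.52 and 0.75, Atf3 between 0.68 and 1.12, Jun between -0.19 and 0.11 and Egr1 between -0.73 and 0.65, and 2 to 5 members were then called higher. It moved the SD among immature arrays between 0.30 and 0.70 for Atf3, 0.15 and 0.51 for Jun, 0.32 and 0.73 for Junb and 0.47 and 0.92 for Nr4a1, the low values being those without replicate 3. Averaging replicates 1 and 2, which leaves 3 samples a group, left 1 member called higher, with Atf3 at 0.75 log2 (limma adjusted p = 0.0848), Fosl2 at 0.62 (0.0553) and Nr4a3 at 0.91 (0.0616). Fosl2 was 0.44 log2 (0.0608) with arrays scaled to their median and 0.41 (0.0782) with no scaling. Those scalings called 2615 and 2428 genes higher, against 3988, and testing all 20887 genes with no dim filter called 10760 genes, 7629 of them higher. With normexp Fos passed (2.39 log2, adjusted p = 0.0495). The cause of the other changes was not tested.

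Same-numbered LPS and immature arrays deviated together with r = 0.19, 0.02, 0.05 and -0.10 for numbers 1 to 4 over the genes tested. The highest r was 0.27, between LPS replicate 3 and immature replicate 4, and LPS replicate 4 with immature replicate 3 had 0.001. LPS replicate 3 had -0.16 and -0.14 with immature replicates 1 and 2. Not every array correlated best with its own number, so the numbers were not taken as pairs. With the replicate number as a block 6606 genes were called, against 7124, and Fos passed at 2.60 log2 (limma adjusted p = 0.00285). The other 9 members kept their side of the threshold under the block.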
